A study of Mus musculus with 6 samples.

Results

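The genes described here are Tlr4, Traf6, Ikbkb, Nfkb1, Jak2, Il6, Ccl2 and Ccl5, which together run from a Toll-like receptor through NF-κB signalling to secreted cytokines. They were followed in peak lists of thyroid hormone receptor α (TRα), located by ChIP-seq (chromatin immunoprecipitation followed by sequencing) in gastrocnemius, a calf muscle, of mice aged 6, 15 and 21 months. There were 2 mice at each of the 3 ages, 6 mice in all, each with its own list, and age is the sole difference between groups that the labels give. The antibody was against TRα in every library, and by the peak names each was paired with input from the same mouse. A peak was taken for a gene when the annotation text that had run over from the peak's row into the next lines held a RefSeq protein accession of that gene. This gave 135 peaks of the 491681 in the 6 lists, and 8 of the 395 genes that such text named. Since the text names a gene at any distance, a peak is called assigned to a gene here, and its distance to the gene's start site was not used. The 8 genes are themselves among those that such text names, so each had at least 1 peak by construction.

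As background, TLR4 is the surface receptor for bacterial lipopolysaccharide, and TRAF6 is the ubiquitin ligase that carries its signal to the IκB kinase complex, of which IKKβ, encoded by Ikbkb, is a catalytic subunit. That kinase frees NF-κB dimers from their inhibitors. Nfkb1 encodes p105 and its processed form p50, a DNA-binding subunit of those dimers. Il6, Ccl2 and Ccl5 are cytokine and chemokine genes that NF-κB is known to switch on, and JAK2 is a tyrosine kinase that signals from cytokine receptors. TRα binds DNA mostly as a heterodimer with retinoid X receptors, at pairs of the hexamer AGGTCA, and is the main thyroid hormone receptor of skeletal muscle.

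The lists were of unequal length, from 29405 peaks in replicate 2 at 15 months to 106152 in replicate 2 at 6 months, so numbers are also given per 10000 peaks of the list. Most peaks in any list were shallow, with a median pileup (fragments stacked at the summit) of 4 or 5, and their fold over input had a median from 2.73 to 3.14. Folds of at least 10 were reached by 44 peaks of replicate 1 at 6 months, fewer than the 108 to 211 of any other mouse. The lists hold DNA positions and no transcript levels, so the tissue label could not be checked against marker genes. In whole muscle, a different mix of cells and a different occupancy per cell cannot be told apart. With 2 mice an age, SDs measure only the spread between these mice. The permutation p-values of trends come from placing the ages on these 6 mice in other ways, and they too speak only for these mice.

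As a group, the 8 genes took a nearly level share of each list. Replicates 1 and 2 held 22 and 30 of their peaks at 6 months, then 28 and 9 at 15 months, then 22 and 24 at 21 months. Per 10000 peaks this was 2.78 and 2.83, 2.82 and 3.06, and 2.40 and 2.79. The values at 6 months overlapped those of each older age, and both at 15 months lay just above both at 21 months. The low raw number of replicate 2 at 15 months followed the length of its list. Of all gene-named peaks, the 8 genes held between 3.42% and 3.77% in every mouse.

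The peaks were weak and resembled the bulk of the lists. Their fold over input ran from 2.10 to 4.27 with a median of 2.82, and the median over all peaks was also 2.82. Pileup ran from 3 to 7 fragments. A pileup of 3 was seen at 28 peaks and a pileup of 4 at 49. The other 58 (43.0%) had a pileup of at least 5, against 42.8% of all peaks. A q of at most 0.05 was reached by 3 of the 135, or 2.22%, against 2.21% of all peaks and 1.99% of gene-named peaks. These 3 were assigned to Ikbkb and Nfkb1 in replicate 2 at 6 months and to Jak2 in replicate 1 at 21 months. The local background recovered from pileup and fold had a median of 1.03 times the lowest of the list, and it was above 2 times the lowest at 1 of the 135 peaks, against 2.80% of all peaks. Width ran from 195 to 591 bp with a median of 253 bp.

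**Figure D1:**
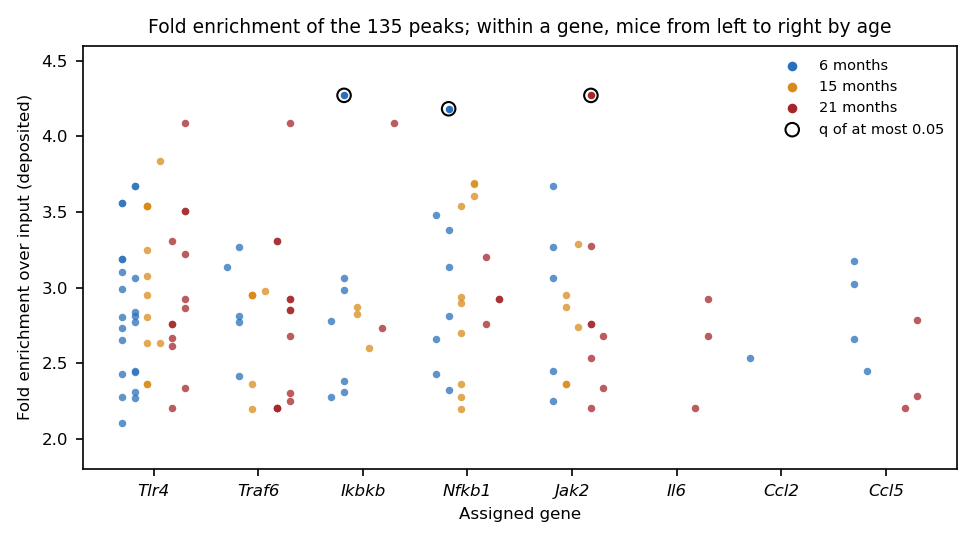
Fold enrichment over input as deposited (vertical axis) of the 135 peaks, by assigned gene (horizontal axis), with mice from left to right in order of age within each gene and colour giving the age. All points lie between 2.10 and 4.27, and the 3 circled peaks, for Ikbkb, Nfkb1 and Jak2, have a q of at most 0.05.

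Tlr4, the lipopolysaccharide receptor at the head of the pathway, had the most peaks of the 8 genes, 47 in all, and ranked 7 among the 395 named genes. At 6 months its peaks numbered 12 and 10, then 10 and 2 at 15 months, then 6 and 7 at 21 months. Per 10000 peaks the values were 1.52 and 0.942, then 1.01 and 0.680, then 0.655 and 0.814. Both values at 6 months lay above both at 21 months, while those at 15 months overlapped the other ages.

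The Tlr4 means at 6, 15 and 21 months were 1.23 ± 0.407, 0.843 ± 0.230 and 0.734 ± 0.113 (SD, n = 2 each). Counting error was wide at these numbers. The 95% exact (Clopper-Pearson) interval was 0.785 to 2.65 for the highest mouse and 0.240 to 1.42 for the lowest, and it covers counting error only. Against age, Pearson's r was -0.72 (two-sided exact permutation p = 0.0778, adjusted 1). Spearman's rho was also -0.72 (exact permutation p = 0.178, adjusted 1). Over the 4 older mice, which leaves out the 2 youngest as farthest from the median age, the r was -0.39. With lists of equal length it was -0.24, and with only peaks of a pileup of at least 5 it was -0.28.

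The Tlr4 peaks lay between 66696417 and 66913622 on chromosome 4 (GRCm39, as all peak positions here), a span of 217 kb. No other peak of any list fell in it, and the same held for the spans of all 395 named genes. The gene's peaks were spread over this span at every age, reaching 217 kb from the first peak at 6 months, 210 kb at 15 months and 190 kb at 21 months. The highest fold was 4.09, in replicate 2 at 21 months, at 66886735 to 66887019, with a pileup of 6 and a q of 0.0959. None of the 47 had a q of at most 0.05.

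Traf6, the ubiquitin ligase downstream of the receptor, had 24 peaks and values that ran opposite to those of Tlr4. The mice of 6 months had 1 and 4, those of 15 months 5 and 1, and those of 21 months 5 and 8. Per 10000 peaks this was 0.127 and 0.377, then 0.503 and 0.340, then 0.545 and 0.930. Both mice at 21 months lay above all 4 younger mice, and the 2 younger ages overlapped.

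The Traf6 means were 0.252 ± 0.177, 0.421 ± 0.115 and 0.738 ± 0.272 (SD, n = 2 each) at 6, 15 and 21 months. The 95% exact interval was 0.00320 to 0.705 for the lowest mouse and 0.402 to 1.83 for the highest. Against age, Pearson's r was 0.79 (exact permutation p = 0.0667, adjusted 1), while the rank correlation rho came to 0.84 (exact permutation p = 0.0667, adjusted 1). Over the 4 older mice r stood at 0.73. When only peaks with a pileup of at least 5 were counted, r was -0.05, and it was 0.28 with lists of equal length. The pileup limit left 7 of the 24 Traf6 peaks, from 0 to 2 in a mouse. These are too few to give a direction for deeper peaks.

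The Traf6 peaks spanned 108 kb of chromosome 2, from 101494505 to 101602539. Measured from the first peak, the 5 peaks at 6 months lay between 42.2 and 82.2 kb and the 6 at 15 months between 4.58 and 38.3 kb. Of these, 4 at 6 months came from replicate 2 and 5 at 15 months from replicate 1. How many named genes have peaks of 2 ages apart in this way was not counted. The 13 at 21 months were spread from 0 to 108 kb. The highest fold was 4.09, in replicate 2 at 21 months, at 101601343 to 101601798, with a q of 0.0959.

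Ikbkb, the IκB kinase subunit, had 12 peaks. There were 2 and 5 at 6 months, then 2 and 1 at 15 months, then 1 and 1 at 21 months. Per 10000 peaks the values were 0.253 and 0.471, then 0.201 and 0.340, then 0.109 and 0.116. Both values at 21 months were below those of every younger mouse. The means were 0.362 ± 0.154, 0.271 ± 0.0982 and 0.113 ± 0.00509 (SD, n = 2 each). The last SD rests on a single peak in each list. Pearson's r was -0.78 (exact permutation p = 0.0667, adjusted 1), while the rank correlation rho came to -0.84 (exact permutation p = 0.0667, adjusted 1). Over the 4 older mice r stood at -0.85. With lists of equal length the Ikbkb r was 0, and with a pileup of at least 5 it was -0.27. Few peaks were left in either setting. Equal lengths left 44 of the 135 peaks of the 8 genes, and the pileup limit left 3 for Ikbkb.

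All Ikbkb peaks fell within 25.4 kb of chromosome 8, from 23194413 to 23219841. The peak with the highest fold of the 8 genes was among them, at 23200120 to 23200503 in replicate 2 at 6 months, with a fold of 4.27, a pileup of 6 and a q of 0.0435. No other mouse had a peak overlapping it, and the nearest peak of another mouse was 2243 bp away.

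Nfkb1, which encodes p105/p50, had 22 peaks and was highest at 15 months. The mice of 6 months had 3 and 5 of them, those of 15 months 7 and 3, and those of 21 months 2 and 2. Per 10000 peaks these were 0.380 and 0.471, then 0.704 and 1.02, then 0.218 and 0.233. On this scale the values of the 3 ages did not overlap, with 15 months highest and 21 months lowest. The numbers of peaks at 6 and 15 months did overlap. Exact intervals for counting error overlapped between all mice. They were 0.0783 to 1.11 and 0.153 to 1.10 at 6 months, and 0.283 to 1.45 and 0.210 to 2.98 at 15 months. At 21 months they were 0.0264 to 0.788 and 0.0282 to 0.840. How many named genes separate all 3 ages was not counted, but Nfkb1 was not the only one. The means were 0.425 ± 0.0647, 0.862 ± 0.224 and 0.225 ± 0.0102 (SD, n = 2 each), and the 1.02 of replicate 2 at 15 months comes from 3 peaks in the shortest list. A linear trend was weak, with r of -0.18 (exact permutation p = 0.767, adjusted 1), rho of -0.48 (exact permutation p = 0.4, adjusted 1) and r of -0.94 without the mice of 6 months. With lists of equal length r was -0.51, as it was with the pileup minimum of 5.

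The Nfkb1 peaks lay from 135388527 to 135462998 on chromosome 3. The strongest was at 135413924 to 135414406 in replicate 2 at 6 months, with a fold of 4.18, a pileup of 7 and a q of 0.0435. A peak of replicate 2 at 15 months began 83 bp beyond its end, at 135414489, with a fold of 3.61 and a q of 0.245. The 2 peaks did not overlap and so were not counted as shared.

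Jak2, the cytokine receptor kinase, had 19 peaks in 5 mice. The mice of 6 months had 0 and 5, those of 15 months 4 and 2, and those of 21 months 6 and 2. Per 10000 peaks this was 0 and 0.471, then 0.402 and 0.680, then 0.655 and 0.233. The 3 ages overlapped. The means were 0.236 ± 0.3331, 0.541 ± 0.196 and 0.444 ± 0.298 (SD, n = 2 each). Pearson's r was 0.40 (exact permutation p = 0.422, adjusted 1) and rho was 0.24 (exact permutation p = 0.711, adjusted 1). The sign turned to an r of -0.26 without the mice of 6 months, and to -0.08 without replicate 1 at 6 months alone, which had no Jak2 peak. With lists of equal length the Jak2 r was 0, and with a pileup of at least 5 it was 0.01.

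The strongest Jak2 peak was at chromosome 19, 29241455 to 29241960, in replicate 1 at 21 months, with a fold of 4.27, a pileup of 7 and the lowest q of the 135 peaks, 0.0360. The nearest peak of another mouse was 7792 bp away. The Jak2 peaks spanned 77.5 kb in all. They included the 1 peak whose local background exceeded 2 times the lowest of its list, at 29203019 to 29203374 with a ratio of 2.65.

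**Figure D2:**
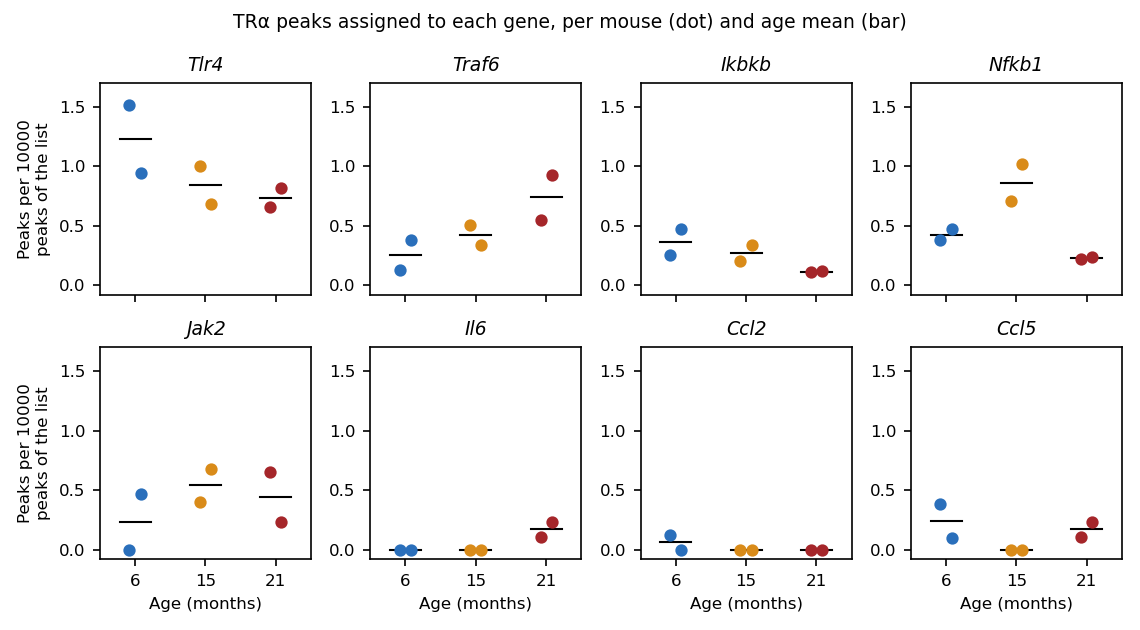
Peaks assigned to each gene per 10000 peaks of the list (vertical axis, same scale in all panels) by age in months (horizontal axis), with a dot for each mouse and a bar for the mean of the age. Tlr4 runs from 1.52 down to 0.655, the Traf6 dots at 21 months lie above all younger mice, and Il6 is at 0 in all 4 younger mice.

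Il6, a cytokine that contracting muscle and immune cells release, had 3 peaks, with 1 and 2 in the mice at 21 months and none in the 4 younger mice. Per 10000 peaks the values at 21 months were 0.109 and 0.233, a mean of 0.171 ± 0.0873 (SD, n = 2). The peaks lay at chromosome 5, 30226510 to 30226738, 30229926 to 30230134 and 30231952 to 30232474, with folds of 2.92, 2.21 and 2.68. They were shallow, with pileups of 4, 3 and 4, and their q values were 0.799, 1 and 0.799. No position was shared by the 2 mice, whose nearest peaks were 1818 bp apart. Pearson's r was 0.73 (exact permutation p = 0.133, adjusted 1), while the rank correlation rho came to 0.85 (exact permutation p = 0.133, adjusted 1). Over the 4 older mice r stood at 0.89.

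The Il6 promoter is shown because Il6 is a target of NF-κB and was the member whose peaks were found at 21 months and at no younger age. The 250 bases before the start site were taken from RefSeq (GRCm38.p6, chr5:30012864-30013113, plus strand), with a match to the κB motif in capitals:
Il6: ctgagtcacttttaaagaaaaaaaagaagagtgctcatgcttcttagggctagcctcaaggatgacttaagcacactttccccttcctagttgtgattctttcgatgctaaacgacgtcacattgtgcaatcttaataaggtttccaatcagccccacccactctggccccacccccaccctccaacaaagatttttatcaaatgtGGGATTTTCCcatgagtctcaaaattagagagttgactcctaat
The match was found by searching both strands for GGGA followed, after any base, by TTTCC, and it lies 44 to 35 bases before the start. The same letters were in 0.411% of 32851 RefSeq promoter windows of 300 bases. Of the 3 windows that matched a gene of the group, that of Il6 held them and those of Traf6 and Jak2 did not. The hexamer AGGTCA, searched on both strands, was in 16.3% of those windows and in 0 of the 3 that matched a gene of the group (Traf6, Il6 and Jak2). A direct repeat of that hexamer with 4 bases between the copies was in 5 of the 32851 and in 0 of the 3. No match says only that these letters are not in the window, and a match is not a binding site. The windows and the peaks are on different builds, so the distance between them was not computed.

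The 2 chemokine genes, both on chromosome 11, had few peaks. Ccl2, which encodes the monocyte attractant MCP-1, had a single peak, in replicate 1 at 6 months, at 81925397 to 81925886. Its fold was 2.53, its pileup 5 and its q 0.855. Against age, Pearson's r was -0.58 (exact permutation p = 0.3333, adjusted 1), rho was -0.55 (exact permutation p = 0.667, adjusted 1), and without the mice of 6 months no value was left to correlate. Ccl5, which encodes the T cell and monocyte attractant RANTES, had 3 and 1 peaks at 6 months, then 0 and 0 at 15 months, then 1 and 2 at 21 months. Per 10000 peaks this was 0.380 and 0.0942, then 0 and 0, then 0.109 and 0.233, so the youngest and oldest mice overlapped. The Ccl5 means were 0.237 ± 0.202 at 6 months and 0.171 ± 0.0873 at 21 months (SD, n = 2 each).

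The 7 Ccl5 peaks lay from 83421160 to 83441871 with folds from 2.21 to 3.17, none with a q of at most 0.05 and none shared. Those at 21 months lay within 7.94 kb of the first peak, and those at 6 months between 4.14 and 20.5 kb from it. Pearson's r was -0.28 (exact permutation p = 0.611, adjusted 1), while the rank correlation rho came to 0 (exact permutation p = 1, adjusted 1). Over the 4 older mice r stood at 0.89. The sign of r turned to 0.40 without replicate 1 at 6 months.

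Few positions recurred between mice. The 135 peaks formed 132 regions when peaks overlapping by at least 1 bp were merged. Of these, 2 held peaks of at least 2 mice, or 1.52%, against 5.52% of the regions of all named genes and 6.40% of all regions. The region shared by most mice was at chromosome 4, 66696417 to 66697464, assigned to Tlr4, with 1 mouse of each age. The peaks were chained end to end there. Replicate 1 at 6 months and replicate 2 at 15 months overlapped by 91 bp, the latter and replicate 1 at 21 months by 23 bp, and the first and last by 0 bp. Their folds were 2.43, 2.63 and 2.76, and their summits spanned 683 bp. The other was at chromosome 19, 29258723 to 29259114, assigned to Jak2, where replicate 1 at 15 months and replicate 1 at 21 months overlapped by 128 bp with summits 57 bp apart. Both of its peaks had a pileup of 3, with folds of 2.36 and 2.21.

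No position of the 8 genes was shared by the 2 mice of an age. With a reciprocal overlap of at least 50%, 0 shared regions remained, and with summits within 150 bp there was 1, that of Jak2. Without replicate 1 or replicate 2 at 15 months, or without replicate 1 at 21 months, 1 shared region was counted. Peaks of different mice often lay near each other without overlapping. Of the 135 peaks 52 lay within 1 kb of a peak of the same gene in another mouse, or 38.5%, against 34.3% of all gene-named peaks. The closest pair that did not overlap was 29 bp apart, at Tlr4, in replicates 1 and 2 at 6 months. The median gap to the nearest peak of another mouse was 781 bp for Nfkb1 and 3422 bp for Traf6.

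**Figure D3:**
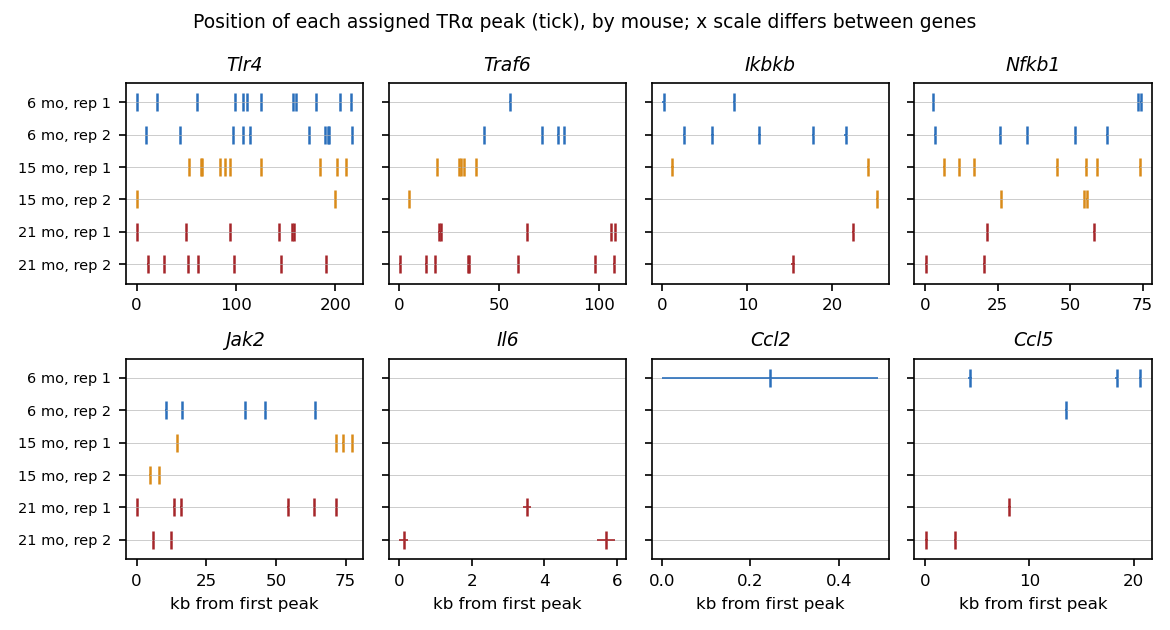
Position of each assigned peak (tick) in kb from the first peak of its gene (horizontal axis, scale differing between genes), in a row for each mouse and coloured by age. Ticks seldom line up between rows, with 2 of 132 regions holding peaks of at least 2 mice.

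Presence in both mice of an age was counted against all named genes. At 6 months peaks in both mice were found for 5 of the 8 genes (Tlr4, Traf6, Ikbkb, Nfkb1 and Ccl5), against 43.3% of named genes. At 15 months there were also 5, with Jak2 in place of Ccl5, against 32.9%. At 21 months there were 7, all but Ccl2, against 43.0%. Tlr4, Traf6, Ikbkb and Nfkb1 had peaks in all 6 mice, as did 18.5% of named genes. The 8 genes were chosen with such counts known, and genes with many peaks are more often present in both mice.

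Few of the 8 were present at 1 age and absent at another. Ccl5 was present in both mice at 6 months and absent from both at 15 months, a pattern of 3.29% of named genes. Il6 and Ccl5 were present in both mice at 21 months and absent from both at 15 months (4.56% of named genes). Il6 was also absent from both at 6 months (2.28%). None showed the reverse patterns, which were found in 2.03% of named genes for 15 months over 6, 3.04% for 6 over 21 and 2.03% for 15 over 21. Without replicate 2 at 6 months, 1 mouse of that age was left. By that mouse Jak2 counted as absent at 6 months and present at both older ages, and Ccl2 as present at 6 months and absent at both. None of the Il6 or Ccl5 peaks had a q of at most 0.05, and with a pileup minimum of 5 or lists of equal length neither gene had peaks in both mice at 21 months, nor Ccl5 at 6 months.

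On the per 10000 scale, Tlr4, Ikbkb and Nfkb1 were higher in both mice at 6 months than in both at 21 months, 3 of 8 against 10.6% of named genes. Traf6 and Il6 showed the opposite, 2 of 8 against 9.37%. Between 15 and 21 months, Ikbkb and Nfkb1 were higher in both mice at 15 months (10.1% of named genes), and Traf6, Il6 and Ccl5 in both at 21 months (12.7%). Between 6 and 15 months, Ccl5 was higher in both mice at 6 months (10.6%) and Nfkb1 in both at 15 months (12.4%). These contrasts share mice, and 2 mice against 2 allow no p below 0.3333.

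No trend with age passed its test. The exact permutation test, with 90 ways to place the ages on the mice and run on all 395 named genes, called 0 genes at an adjusted p of at most 0.05 (0.00%), and 9 genes had an unadjusted p of at most 0.05 (2.28%), none of them among the 8. The smallest p this test can give is 0.0111, and 88 genes would have to reach it before any could pass the adjustment. The test therefore does not show that the values did not differ between ages. Of the 8 genes 5 had a negative r, against 46.8% of named genes.

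The number of peaks of a gene and the length of genome assigned to it rose together, in part by construction. Between the nearest peaks not assigned to the gene, the stretch was 234 kb for Tlr4, 125 kb for Traf6, 96.2 kb for Nfkb1, 86.3 kb for Jak2 and 41.6 kb for Ikbkb. It was 34.0 kb for Il6, 30.0 kb for Ccl5 and 12.8 kb for Ccl2. Across the 8 genes, which share the same 6 lists, Pearson's r between stretch and number of peaks was 0.99 and Spearman's rho was 0.98. Over all 395 named genes rho was 0.80. These are correlations across genes, which are not independent replicates. A stretch is bounded around the gene's own peaks and holds no other peak, so each further peak tends to lengthen it. The correlations are thus partly built in and do not show which quantity follows the other.

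Peak density was measured as gaps between neighbouring peaks over all 6 lists, per 100 kb of stretch, and set against the whole chromosome. It was 20.5 for Tlr4 against 19.3 on chromosome 4, and 19.95 for Traf6 against 19.6 on chromosome 2. The ratio to the chromosome was 1.59 for Ikbkb, 1.45 for Ccl5, 1.28 for Jak2, 1.16 for Nfkb1, 0.847 for Ccl2 and 0.588 for Il6. The median ratio over the 8 genes was 1.11 and over all named genes 0.770. These medians were not matched for the number of peaks per gene, which enters the ratio. That number had a median of 6 over all named genes and was 47 for Tlr4. The density of Tlr4 and Traf6 peaks was thus close to that of their chromosomes, and in the small stretches of Il6 and Ccl2 the ratio rests on 3 peaks and 1 peak.

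**Figure D4:**
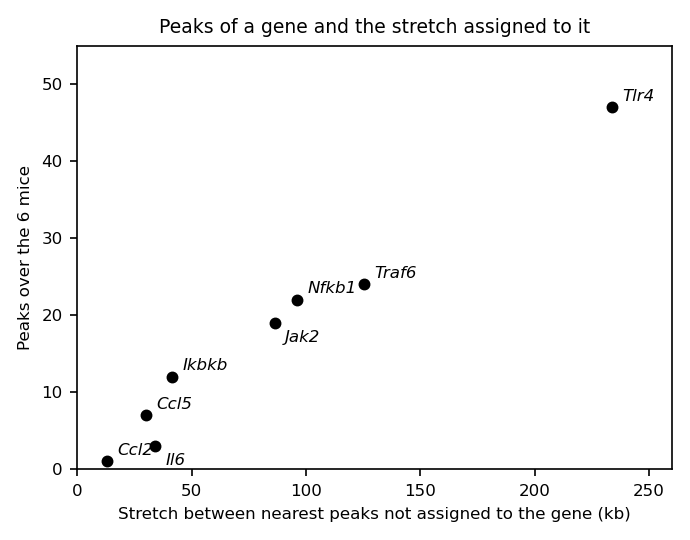
Number of peaks over the 6 mice (vertical axis) against the stretch in kb between the nearest peaks not assigned to the gene (horizontal axis), with a point for each of the 8 genes. Peaks rise with stretch from Ccl2 (1 peak, 12.8 kb) to Tlr4 (47 peaks, 234 kb), in part by construction, since the stretch is bounded around the gene's own peaks.

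Of 103 other genes of the Toll-like receptor, NF-κB, JAK-STAT and cytokine pathways, 13 were named by the annotation text. Adaptor and NF-κB genes such as Myd88 and Rela were not among them and were not analysed here. The 13 included Tlr2, the cytokines Il10, Il4 and Ifng, the signal transducers Jak1, Stat3 and Stat5a, and the chemokine receptors Ccr1, Ccr2, Ccr3, Ccr4 and Ccr7. They had 143 peaks, 2 of them with a q of at most 0.05, for Tlr2 and Jak1. At 6, 15 and 21 months 10, 6 and 8 of the 13 had peaks in both mice, against the same 43.3%, 32.9% and 43.0% of named genes, and 0 passed the trend test in either direction.

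Tlr2, a receptor for bacterial lipoproteins, had 22 peaks and was present in every mouse, with 5 and 2 peaks at 6 months, then 2 and 2 at 15 months, then 6 and 5 at 21 months. Ccr2, the receptor for CCL2, had 3 and 2, 3 and 0, and 6 and 2 peaks in the same order, so both mice had peaks at 6 and 21 months. Ifng, the gene for interferon γ, had 3 and 1, 3 and 0, and 0 and 3 peaks. Jak1, a kinase of the JAK2 family, had 2 and 1, 1 and 0, and 0 and 1 peaks in the same order, with a highest fold of 4.70.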

How the data were processed

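Peak tables of 6 mice were used, 2 per age. MACS2 2.1.1.20160309, HOMER 3, Trimmomatic 0.36 and SAMtools 1.3.1 are named in the submitters' processing notes, as are the builds GRCm39 and mm10. For the aligner and the caller's options, the sources used here give none. Positions reach beyond the mm10 end of chromosome 4, so they are given as GRCm39, counted from 1. Pileup, a signal that the authors deposited for each peak, is the number of fragments at the summit. Fold enrichment, which the authors also deposited, is a ratio to local input background. Each peak's p and q are in the authors' tables as −log10 of a p-value or q-value, with the lowest −log10 p at 2.00 to 2.01 in every list. These are the authors' values and describe single peaks. Read totals were not used here, so depth is unknown beyond the pileups.

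Text followed 3987 peaks and named 1 gene for 3812 (0.775% of all), through protein accessions in a RefSeq table of GRCm38.p6 used for names only. Of the 8 genes 5 were tied to 1 protein accession. Local background was computed as (pileup + 1) / fold − 1. Trends were Pearson's r and Spearman's rho of peaks per 10000 with age, with two-sided exact permutation p-values and Benjamini-Hochberg adjustment over the 395 named genes, checked on simulated data (Python 3.11.15, numpy 2.4.6, scipy 1.17.1). In that check, recovery of the sign of a trend was required only with counts set far above those of these lists. At the lists' own counts the requirement covered only unchanged genes. Alternatives were limits on q and pileup, equal list lengths, other overlaps, raw numbers, a minimum of 6 peaks per gene, a replicate block and leaving out each mouse. The members, the pathway list and the tests were chosen with earlier results of these data known. The text names the 8 genes, those of the 103 listed pathway genes that had names in the tables (1 is counted and its values are not reported here), and for the 2 genes with the most peaks the 3 most alike genes with at least 20 peaks.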

Additional observations from a re-analysis of the deposited data

How the results depend on the processing

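At this depth a peak rests on few fragments, and a missing peak does not show absence of binding. With q of at most 0.05 the 8 genes had 3 peaks, with a pileup of at least 5 they had 58, and with equal list lengths 44, against 135. The genes with peaks in both mice numbered 0 at 6, 0 at 15 and 0 at 21 months with the limit on q. With equal list lengths they numbered 3, 2 and 2, and with the pileup limit 4, 2 and 2. Il6 and Ccl5 at 21 over 15 months fell from 2 to 0, and Il6 at 21 over 6 months from 1 to 0, with all 3 settings. At 6 over 15 months Ccl5 was lost with all 3 settings, which left 0 genes with the limit on q and equal list lengths and 1 other gene, Ikbkb, with the pileup limit. The 2 shared regions became 0 with each of these settings and with 50% reciprocal overlap, and 1 with summits within 150 bp. When each mouse was left out in turn, a gene counted as present or absent at that mouse's age by the 1 mouse left. The peaks then numbered 105 to 126, shared regions 1 to 2, genes present at 6 months 5 to 6, and genes at 6 over 15 months 1 to 2. They numbered 0 to 1 at 6 over 21 months, 0 to 1 at 15 over 6 months, and 1 to 2 at 21 over 6 months. The changes in these 4 contrasts between ages came without replicate 2 at 6 months, where Jak2 counts as absent at 6 months or Ccl2 as present. Of 85 alternative trend values, 78 kept their sign, 5 turned and 2 were 0 (Ikbkb and Jak2 with equal list lengths), none passed the test, and the lowest adjusted p by the exact permutation test was 0.783. Leaving out mice gave r from -0.55 to 0.40 for Ccl5, from -0.0834 to 0.70 for Jak2 and from -0.42 to 0.0596 for Nfkb1, and a pileup of at least 5 gave -0.0474 for Traf6. The cause was not tested. With the replicate number as a block, 0 of the 8 genes passed, as without it. Deviations of same-numbered mice correlated at 0.00, -0.12 and 0.03 over the 395 genes, so the numbers were not taken as pairs. Counting peaks by a gene name in the table's own columns was not run, since the rows of peaks hold none.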

Other observations

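The strongest peaks of several of the genes had the same values. In replicate 2 at 21 months the best peaks of Tlr4, Traf6 and Ikbkb each had a pileup of 6, a local background of 0.711, the lowest of that list, a fold of 4.09 and a q of 0.0959. Of the 135 peaks 6 lay in the top 5% of their list by fold, or 4.44%, and 5 of the 8 genes held at least 1 of them. The other 3 of the 6 were the peaks of Ikbkb, Nfkb1 and Jak2 with a q of at most 0.05.

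Over the 6 mice, and among 53 other named genes with at least 20 peaks, Kif5c, Grm8 and Foxo3 had the peaks per 10000 most alike to those of Tlr4, with Pearson's r of 0.90, 0.76 and 0.73. Those most alike to Traf6 were Flt1, Crhr1 and Ins1, with r of 0.79, 0.62 and 0.54. These values describe 6 points each and were picked as the highest of 53.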
